A study of Mus musculus with 2 samples.

Results

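Collagens are the main structural proteins of the extracellular matrix, built of chains whose long triple-helical stretches repeat glycine at a fixed spacing. The collagen genes described here are the protein-coding genes whose symbol is Col, a number, the letter a and a number, with Col17a1 left out. This rule gave 43 of the 21938 protein-coding genes of the mouse annotation (GENCODE vM21 on GRCm38), and it used no measured value. Their histone mark H3K36me3 was mapped by ChIP-seq in primary keratinocytes (KCs) of 10-week-old C57BL/6 mice of the genotype Setd2fl/fl. The floxed allele leaves Setd2 intact in these mice, whose genotype label names no Cre and which served as controls of a study of wound healing after epidermal loss of SETD2. The cells came from epidermis lifted off the dermis with dispase and digested with trypsin, and the sources used here do not say whether animals were pooled. There was 1 ChIP library, whose 45575 annotated peaks were used, and 1 input library, which was not analysed here. With no replicates and no deposited depth, all values below are descriptions of 1 library, without a test.

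H3K36me3 is placed by SETD2, which travels with elongating RNA polymerase II, so the mark usually lies along the bodies of transcribed genes and thickens towards their 3′ ends. In skin, fibroblasts of the dermis make most of the fibrillar collagens. KCs secrete collagens of the basement membrane that they sit on, among them type VII collagen, whose anchoring fibrils tie that membrane to the dermis.

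The peak list was first set against the label of the cells, by marker lists chosen with earlier results of these data known. All 11 markers of basal KCs had a peak on the gene body, over 26.4 to 96.0% of it, as did 6 of 8 markers of differentiated KCs (all but Flg and Ivl). Of 15 fibroblast markers 2 had a peak: Postn, which encodes the matrix protein periostin, was covered over 72.3% of its body and Fbln1 over 13.9%, while Pdgfra, Dcn, Lum, Fbn1, Thy1 and the other 8 were at 0. Peaks also lay on 2 of 8 endothelial, 2 of 8 melanocyte, 2 of 8 immune and 1 of 4 smooth muscle markers. Of these 7 genes, Cd68 was covered over 100% of its body, by a peak that also lies on Eif4a1 and Senp3, and the others over 0.275 to 15.3%. For scale, 51.4% of the 21938 protein-coding genes carried a peak, and in 23.8% at least 50% of the bases lay in peaks. The lists of basal and differentiated KCs stood above the first of these shares, at 100 and 75%. The fibroblast list stood below it at 13.3%, as did the endothelial, melanocyte, immune and smooth muscle lists at 25% each. In bulk chromatin, fewer marked cells and less of the mark per cell cannot be told apart.

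A minority of the collagen genes carried H3K36me3 in the KCs. A peak of at least 1 bp lay on the body of 12 of 43 collagen genes (27.9%), against 51.4% of all protein-coding genes. Col7a1, the type VII collagen gene, was the one collagen gene covered over at least 50% of its body, which is 2.33% of them against 23.8% of all protein-coding genes. The covered share is the part of a gene body that lies in peaks, in percent. It had a median of 0 over the collagen genes and of 1.07% over all protein-coding genes. Among genes with a peak the medians were 2.02% for the 12 collagen genes and 46.4% for all. Collagen genes are long, and neither these medians nor the count at 50% of the body were compared within ranges of gene length. Summed over bases, 108211 of the 5319257 bp of collagen genes lay in peaks (2.03%), against 16.6% of the bases of all protein-coding genes. 4 genes, Col7a1, Col12a1, Col16a1 and Col18a1, held 93142 of those base pairs (86.1%). A collagen gene without a peak may still carry H3K36me3 too weak for the peak threshold, which was not measured.

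**Figure D1:**
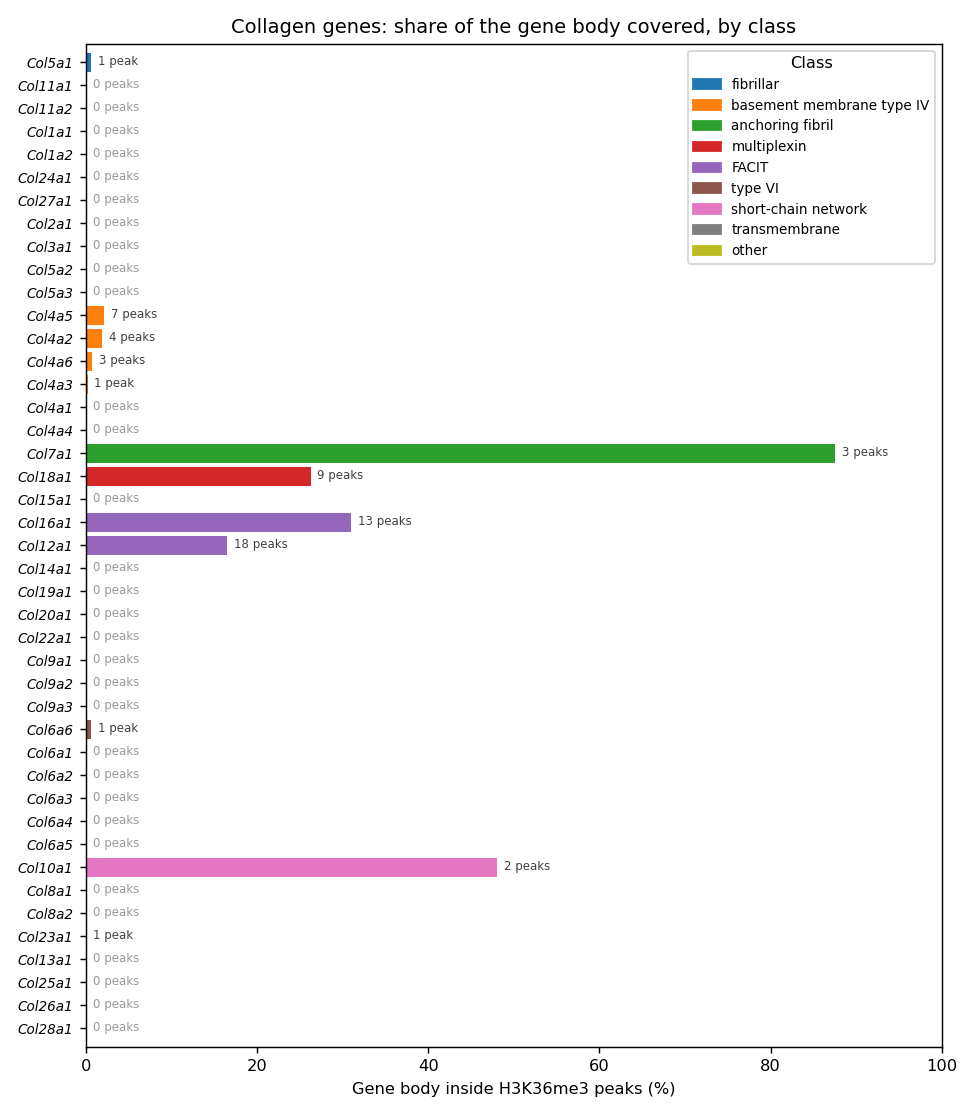
Percent of the gene body inside H3K36me3 peaks (x axis) for each of the 43 collagen genes (y axis), grouped and coloured by structural class, with the number of peaks on the body beside each bar, from 1 ChIP library. Col7a1 stands at 87.6%, Col10a1, Col16a1, Col18a1 and Col12a1 between 16.5 and 48.0%, 7 genes under 2.5%, and 31 genes at 0.

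Collagen genes are long, with a median of 114404 bp against 17425 bp for all protein-coding genes, so the counts were also set side by side within ranges of gene length. Under 20 kb, 1 of 4 collagen genes had a peak (Col10a1), against 40.2% of all genes of that length. From 20 to 50 kb it was 1 of 10 (Col7a1) against 65.4%. From 50 to 100 kb it was 1 of 3 (Col16a1) against 68.4%, and from 100 to 200 kb 6 of 18 against 64.5%. Over 200 kb the counts came closest, with 3 of 8 collagen genes against 47.6%. The collagen genes were thus below the other genes in each range, with only 3 to 18 of them in a range. Those with a peak had a median length of 135811 bp and those without one of 105007 bp.

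**Figure D2:**
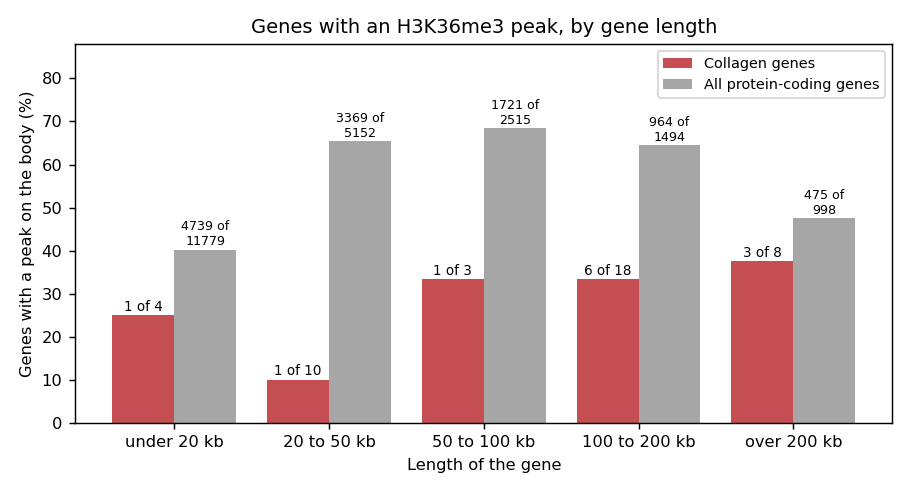
Percent of genes with an H3K36me3 peak on the body (y axis) for collagen genes (red, left) and all protein-coding genes (grey, right) in 5 ranges of gene length (x axis), with the counts above the bars. The collagen bars run from 10.0 to 37.5% and the bars of all genes from 40.2 to 68.4%.

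By their medians the peaks on collagen genes were narrower and slightly lower than all peaks. Col12a1 gave 18 of them and Col16a1 13, so the medians lean on these genes. The widest peak, on Col7a1, was 24702 bp. Their 63 peaks had a median width of 829 bp, against 1614 bp for all peaks. Fold enrichment, the deposited ratio of ChIP signal to the background that the peak caller estimated, ran from 2.54 to 3.54 on them with a median of 2.80; over all peaks it ran from 2.17 to 6.97 with a median of 2.90. A value of 3 or more was reached by 16 of the 63, against 40.0% of all peaks. Such a peak was present on 8 of the 43 collagen genes (18.6%), against 42.6% of all protein-coding genes. The weakest of the marked genes by this measure were Col4a5, Col4a6, Col5a1 and Col23a1, where no peak reached 3. A single peak, on Col18a1, had a p below 1e-05 in the deposited table (−log10 p of 5.36), against 12.8% of all peaks. That leaves 1 of 43 collagen genes (2.33%) against 24.6% of all protein-coding genes at that p.

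**Figure D3:**
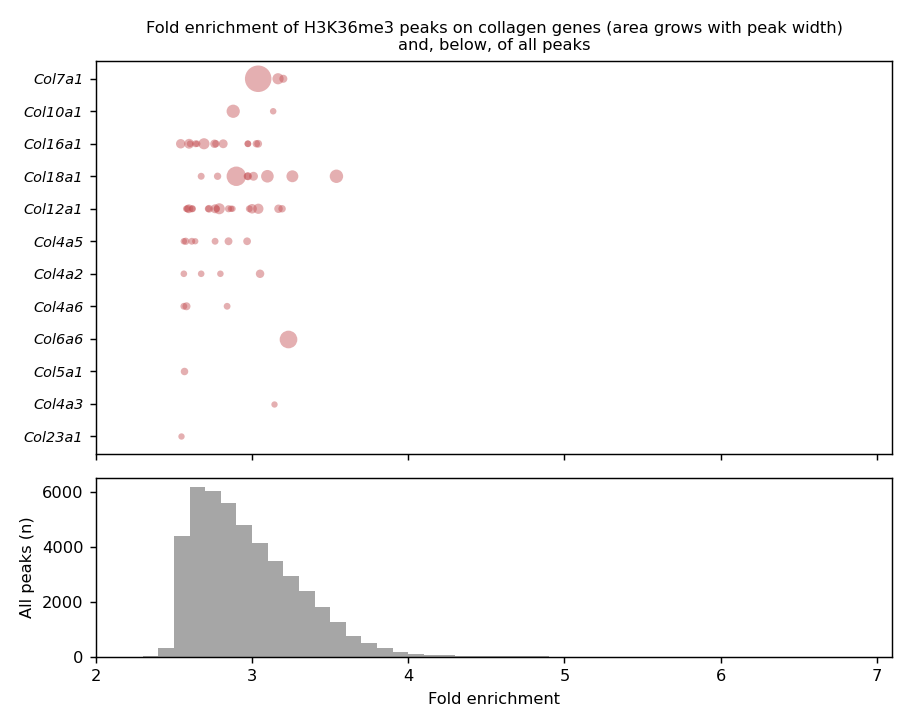
Fold enrichment (x axis) of each H3K36me3 peak on the 12 collagen genes that have one (upper panel, 1 row a gene, symbol area growing with peak width) and the number of all 45575 peaks in steps of fold enrichment (lower panel). The peaks on collagen genes span 2.54 to 3.54, in the lower part of the range that all peaks span (2.17 to 6.97), and the wide peak in the Col6a6 row lies mostly on Pik3r4.

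Col7a1, which encodes the chain of the anchoring fibril, was covered from near its start to past its end. The gene (chr9:108953586-108984875 on the plus strand, GRCm38) carried peaks of 1184, 3406 and 24702 bp, with fold enrichments of 3.20, 3.17 and 3.04. The first began 1814 bp into the gene. The last (chr9:108962064-108986765) ran past the 3′ end over Ucn2, which encodes the peptide urocortin 2 and takes 756 bp of it. Together they covered 87.6% of the body, more than 91.2% of the marked protein-coding genes of 20 to 50 kb. With the body cut into 10 equal bins, 37.8, 70.2 and 67.7% of the bases lay in peaks in the opening 3 bins and 100% in each of the later 7. None of the 3 peaks had a p below 1e-05. The highest −log10 p among them was 4.45.

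Most of the coding part of Col7a1 lay in these peaks. It has 118 coding exons, the most of any collagen gene here, and 107 of them were wholly inside a peak. Coding exons 1 to 3, 10 to 12 and 22 to 24 had no base in one, and exons 9 and 21 were partly inside. The sequences below are examples picked for their collagen repeat and do not stand for all marked exons. They had to be wholly inside a peak, to open on a whole codon and to be 36, 45 or 54 bp long. They also had to hold 1 glycine codon per 9 bp, and the first exons that met all this are printed. Over the whole coding sequence of Col7a1, 48.3% of codons lay in glycine repeats, as defined in the next paragraph. They are coding exons of Col7a1 inside the widest peak, read 5′ to 3′ on the sense strand from GRCm38, with the GGN codons, which encode glycine, in capitals.
Col7a1 coding exon 30: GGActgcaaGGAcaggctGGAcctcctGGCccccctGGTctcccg
Col7a1 coding exon 33: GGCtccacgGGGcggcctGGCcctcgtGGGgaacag
Col7a1 coding exon 34: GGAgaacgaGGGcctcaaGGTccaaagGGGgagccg
Col7a1 coding exon 38: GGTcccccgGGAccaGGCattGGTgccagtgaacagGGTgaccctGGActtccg
Exon 30 lies at chr9:108963103-108963147, exon 33 at chr9:108964050-108964085, exon 34 at chr9:108964221-108964256 and exon 38 at chr9:108965158-108965211. In the first 3 a glycine codon opens every group of 3 codons and the exon length, 45 or 36 bp, is a multiple of 9. The lengths and the numbers of glycine codons follow from the choice of exons. In exon 38 (54 bp) the spacing is broken between glycine codons. Of the 116 internal coding exons of Col7a1, 76 had a length that is a multiple of 9.

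This structure was common across the family, marked or not. Over all collagen genes 64.0% of internal coding exons were a multiple of 9 bp long, against 13.7% in the other protein-coding genes, and the median number of coding exons was 47 against 6. Codons lying in runs of at least 5 GGN codons spaced 3 codons apart made up 10% or more of the coding sequence in 42 of 43 collagen genes, against 0.353% of the other genes. Col12a1, whose chain is mostly globular domains, was the exception at 8.19%. The median was 65.0% for collagen genes with a peak and 61.1% for those without. The median count of coding exons was 49.5 with a peak and 43 without.

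FACIT collagens sit on the surface of collagen fibrils, their helices broken by short interruptions. 2 of 9 FACIT genes had a peak, Col16a1 and Col12a1, and both carried many small ones. Col16a1 (chr4:130047840-130099283), a collagen found in skin near the basement membrane, had 13 peaks covering 31.0% of its body, each 346 to 3348 bp wide. Their fold enrichments ran from 2.54 to 3.04. All 13 were assigned to Col16a1 in the deposited table and none touched another protein-coding gene. Col12a1 (chr9:79598991-79718831, minus strand), whose product binds type I collagen fibrils, had 18 peaks covering 16.5% of its body, each 252 to 3281 bp wide and with a fold enrichment between 2.58 and 3.19. A further peak assigned to it, of 721 bp, began beyond its 3′ end. These were the marked collagen genes with more peak bases on the 5′ side of the midpoint than on the 3′ side: 8511 against 7417 bp in Col16a1 and 11072 against 8701 bp in Col12a1. By peak midpoints the order of Col12a1 turned, with 7 on the 5′ side and 11 on the 3′ side, while Col16a1 kept 7 against 6. The order of Col7a1 turned the other way, with 2 midpoints on the 5′ side and 1 on the 3′ side.

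The shortest peak on any collagen gene lay on Col12a1 and held a whole exon that ends in collagen repeats. It is printed from GRCm38 (chr9:79615859-79616110) on the sense strand, with the 87 exon bases in capitals.
Col12a1 peak of 252 bp: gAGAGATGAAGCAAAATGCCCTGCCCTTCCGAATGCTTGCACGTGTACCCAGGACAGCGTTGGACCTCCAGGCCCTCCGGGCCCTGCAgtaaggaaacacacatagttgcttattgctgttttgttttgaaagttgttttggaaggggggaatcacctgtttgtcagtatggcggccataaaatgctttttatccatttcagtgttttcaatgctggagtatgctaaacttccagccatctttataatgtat
Its fold enrichment was 2.88, a value that 46.6% of all peaks fall below. The capitals are followed by the gt of the splice donor.

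The other 7 FACIT genes had no peak on the body. They are Col9a1, Col9a2 and Col9a3, whose chains form type IX collagen of cartilage, and Col14a1, Col19a1, Col20a1 and Col22a1. Col14a1, which encodes a fibril-bound collagen of dermis and tendon, had its nearest peak 1291 bp downstream, on no protein-coding gene. Col22a1 had the most distant nearest peak of all collagen genes, 657844 bp upstream, on Trappc9.

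Col18a1, a multiplexin of basement membranes whose C-terminal end gives endostatin, was marked on the 3′ side of its midpoint alone. The gene (chr10:77052178-77166548, minus strand) had 9 peaks covering 26.3% of its body, each 575 to 12720 bp wide. No peak lay in the opening 52602 bp, up to the start of a transcript that begins inside the gene, and the first peak began 7452 bp after that start. Of that inner transcript (ENSMUST00000072755, 1774 codons) 47.8% was covered. In 10 equal bins of the body the covered share was 0 in the opening 5, then 7.98, 49.7, 62.0, 100 and 42.9%. The highest fold enrichment on any collagen gene, 3.54, was on its peak of 5421 bp, which touched 8 exons. It stood above 93.7% of all peaks. The last 3 peaks also lie on Slc19a1, which encodes a folate carrier, and outside that gene the covered share of Col18a1 was 24.6%. Col15a1, the other multiplexin gene, had no peak, and the nearest one lay 73166 bp downstream on Tgfbr1.

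**Figure D4:**
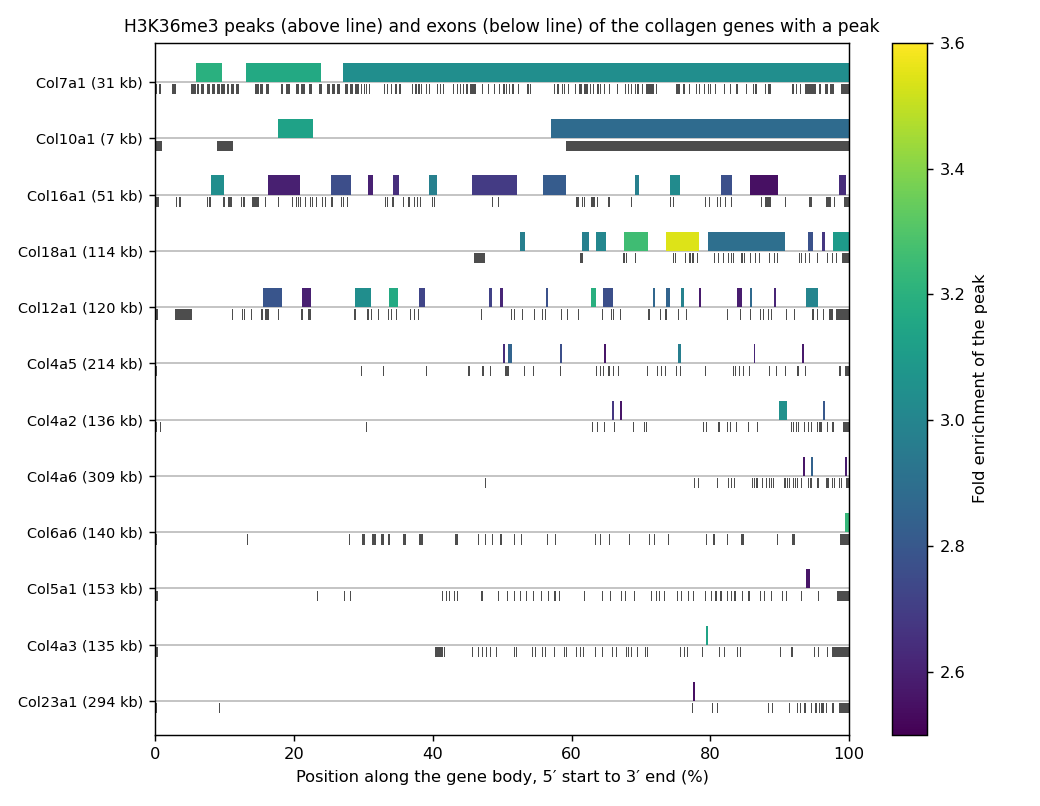
H3K36me3 peaks (coloured blocks above each line, colour giving the fold enrichment) and exons of all transcripts (grey blocks below it) along the bodies of the 12 collagen genes with a peak, scaled so that 0% is the 5′ start and 100% the 3′ end (x axis), with gene lengths in kb. Peaks fill Col7a1 over 87.6% of its length, are spread along Col16a1 and Col12a1, and begin beyond 50% of the body in 8 genes. The last count was not made over all protein-coding genes with a peak.

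Type IV collagen forms the network of basement membranes, and its 6 genes lie as 3 head-to-head pairs. 4 of the 6 had a peak, yet peaks held only 0.919% of their bases and all lay on the 3′ side of the midpoints. Col4a5 (chrX:141475385-141689234) had 7 peaks that covered 2.13% of it, each 265 to 1084 bp wide. Col4a2 (chr8:11312805-11449287) had 4 peaks, of 371 to 1434 bp, covering 1.92%. Col4a6 (chrX:141165403-141474076) had 3, of 509 to 1153 bp, covering 0.704%. Their fold enrichments ran from 2.56 to 3.05. Col4a3 (chr1:82586921-82722059) had 1 peak of 276 bp over 0.204%, in an intron, with a fold enrichment of 3.14. Col4a1, whose chain pairs with that of Col4a2 in nearly all basement membranes, had none, and neither had Col4a4.

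The partners on chromosomes 8 and 1 therefore differed in whether a peak was called, on no more than 1.92% of a gene body. The stretches at which the pairs on chromosomes 8 and 1 meet are printed, on the plus strand of GRCm38, to show how close the partners are; no part is marked, so no base is in capitals.
Col4a1 and Col4a2, bases shared by both gene starts: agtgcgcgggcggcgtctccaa
Col4a3 and Col4a4, bases between the gene starts: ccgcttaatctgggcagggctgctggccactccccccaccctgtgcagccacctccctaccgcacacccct
Col4a2 and Col4a1 overlap by these 22 bp (chr8:11312805-11312826). Col4a2 had 4 peaks, the first 89893 bp from its start, and Col4a1 had 0. Col4a3 and Col4a4 are 71 bp apart (chr1:82586850-82586920), with 1 peak on Col4a3, 107288 bp from its start, and 0 on Col4a4. In the third pair, Col4a5 and Col4a6, the starts are 1308 bp apart and both genes were marked, 107182 bp from the start of Col4a5 and 288323 bp from that of Col4a6.

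The collagen genes with the fewest covered bases, Col4a3 and Col23a1, each had 1 peak, inside an intron. The peak on Col4a3 (chr1:82694209-82694484) is printed as an example, on the sense strand; it holds no exon base, so none is in capitals. Soft-masked bases, the repeats marked in the assembly, made up 54.7% of it.
Col4a3 peak of 276 bp: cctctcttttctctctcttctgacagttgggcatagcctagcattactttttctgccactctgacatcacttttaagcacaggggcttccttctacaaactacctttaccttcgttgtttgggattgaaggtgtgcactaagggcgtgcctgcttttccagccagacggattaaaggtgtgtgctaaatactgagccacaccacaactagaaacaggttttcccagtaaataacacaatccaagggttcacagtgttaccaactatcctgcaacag
Whether the reads in this peak mapped uniquely was not tested. Col23a1, which encodes a transmembrane collagen, is 293999 bp long, and its peak covered 0.0966% of it, with a fold enrichment of 2.54. The other transmembrane collagens, Col13a1 and Col25a1, had no peak.

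Fibrillar collagens form the banded fibrils of dermis, tendon, bone and cartilage. Of their 11 genes, Col5a1 alone had a peak on its body, and peaks held 0.0838% of the bases of the class. Col5a1 encodes a chain of type V collagen, which starts and limits the growth of type I fibrils. Its peak (chr2:28030026-28030901) was 876 bp wide, lay in an intron at 93.8% of the body (chr2:27886425-28039514) and had a fold enrichment of 2.56, with 3.76% of all peaks lower. The deposited table gave it to Gm13372, which starts inside it. The study also listed RT-qPCR primers for Col5a1 mRNA. In the paper such assays followed RNA-seq of skin tissue from mice with and without epidermal loss of SETD2. The peak comes from isolated KCs of Setd2fl/fl mice. The primers are printed here to place that assay against the peak.
Col5a1 sense primer: cttcgccgctactcctgttc
Col5a1 antisense primer: ccctgagggcaaattgtgaaaa
Both match exons by exact search of the gene, the sense primer at chr2:27886868-27886887 and the antisense primer at chr2:27922048-27922069. The peak begins 143139 bp after the sense primer and 107957 bp after the antisense one, so the assay and the peak lie at opposite ends of the gene.

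No peak lay on Col1a1 and Col1a2, which encode the chains of type I collagen, or on Col3a1, the type III gene, which together make up most of the fibrils of the dermis. The nearest peaks were 40818 bp from Col1a1, on Ppp1r9b, 73129 bp from Col1a2, on Casd1, and 449891 bp from Col3a1, on Wdr75. Col2a1, Col5a2, Col5a3, Col11a1, Col11a2, Col24a1 and Col27a1 had none either. Of the 15 fibroblast markers, a list without collagen genes that was chosen with these data known, 13 were also at 0. The others, Postn and Fbln1, were covered over 72.3 and 13.9% of the body. Of all protein-coding genes 51.4% had a peak. Why these genes had no peak was not tested.

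Type VI collagens form the beaded microfibrils around cells, and 1 of 6 genes had a peak. That was Col6a6, and its peak belonged mostly to a neighbour: of 10284 bp, 9252 bp lay in Pik3r4, which encodes a regulatory subunit of the class III PI3-kinase, and 881 bp reached the 3′ end of Col6a6. The table assigned it to Pik3r4. Col6a1, Col6a2, Col6a3, Col6a4 and Col6a5 had no peak. The short-chain gene Col10a1, known as a marker of hypertrophic cartilage, was covered over 48.0% of its 7105 bp by 2 peaks with fold enrichments of 3.14 and 2.88, but the whole gene lies inside Nt5dc1 on the opposite strand. No base of it is free of Nt5dc1, and ChIP reads carry no strand, so signal of the genes cannot be told apart. Col8a1 and Col8a2, the other short-chain genes, and Col26a1 and Col28a1, which fit no class, had none. Counting only bases outside other protein-coding genes, 11 of 43 collagen genes (25.6%) had a peak, against 48% of all protein-coding genes.

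Several unmarked collagen genes had peaks at their edges that lay on neighbours. Of the 31 genes without a peak, 5 had one within 2 kb of the body, 7 within 5 kb and 12 within 30 kb, and the median distance to the nearest peak was 58276 bp. These distances were not taken for the other protein-coding genes without a peak. Col11a2, a cartilage collagen gene, had a peak 1128 bp upstream on Rxrb, which encodes a retinoid receptor. Col9a3 had one 1510 bp upstream on Ogfr, Col8a2 one 1595 bp downstream on Adprhl2, and Col20a1 one 3736 bp upstream on Arfgap1. Col4a4 had one 1362 bp downstream on no protein-coding gene. Col9a2 had one 2943 bp downstream, of which 10853 of 11825 bp lay in Zmpste24, the gene of the protease that matures lamin A.

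Such edges separate occupancy of the body from the deposited assignment, which goes by the nearest transcript start. By assignment 11 of 43 collagen genes (25.6%) had a peak, against 45.4% of all protein-coding genes. Col9a2 was counted through the peak on Zmpste24. Col5a1 and Col6a6 dropped out, since their peaks went to Gm13372 and Pik3r4. Of the 63 peaks on collagen genes, 47 were assigned to the gene they lie on. The rest include 8 on Col12a1 that went to 4930562D21Rik, and 5 on Col4a5 that went to Gm15268 or Gm15282.

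Within the marked genes, peaks leaned to the 3′ side as they did elsewhere. More peak bases lay on the 3′ side of the midpoint in 10 of 12 collagen genes (83.3%), against 86.3% of all protein-coding genes with a peak, so the share is near that of other genes. By peak midpoints the count was 8 of 12, with Col10a1 tied at 1 on each side and the midpoint of the Col6a6 peak off the gene. With only peaks of a fold enrichment of at least 3 it was 5 of 8. Neither of these counts was made over all protein-coding genes. Averaged over the 12 genes, 4.82% of the first of 10 equal bins of the body lay in peaks, 13.1% of the fifth, 31.0% of the ninth and 25.7% of the last. For the 10299 marked protein-coding genes of 5000 bp or more these means were 7.76, 48.2, 62.9 and 63.8%. The covered share was thus lower on the collagen genes in each of these 4 bins, and Col7a1 adds 100% to the mean of 7 of the 10. The genes of these means were not matched on length.

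In the marked collagen genes exons were not uniformly more covered than introns. The exon share in peaks exceeded the intron share in 6 of 12 collagen genes (50%), against 73% of all protein-coding genes with a peak and an intron, and the median difference was 0.46 percentage points against 13.5. This comparison was not matched on covered share, which had a median of 2.02% in the 12 genes and 46.4% in all genes with a peak. Of the 12, 7 were covered under 2.5%. Col18a1 had 54.9% of exon bases and 24.4% of intron bases in peaks, and Col12a1 22.0 and 15.7%. In Col4a6 the shares were 12.7 and 0.385%, and in Col10a1 92.6 and 12.9%. The order turned in Col7a1, at 85.3 and 88.7%, and in Col16a1, at 30.7 and 31.0%. With coding exons alone the count was again 6 of 12 but not of the same genes: Col16a1 came to 35.6% of coding exon bases, above its introns, and Col6a6 to 0. Of the 63 peaks, 40 touched an exon, a count that was not made over all peaks.

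**Figure D5:**
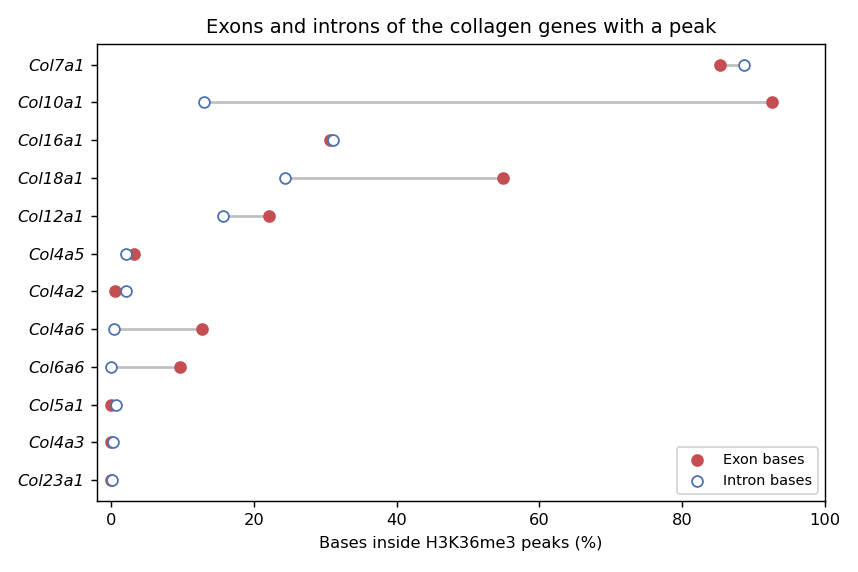
Percent of exon bases (red, filled) and of intron bases (blue, open) inside H3K36me3 peaks (x axis) for each of the 12 collagen genes with a peak (y axis). The widest gaps are in Col10a1 (92.6 and 12.9%) and Col18a1 (54.9 and 24.4%), while Col7a1 and Col16a1 have nearly equal shares and 3 genes have no exon base in a peak.

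Promoters of marked and unmarked collagen genes overlapped in base composition. RefSeq promoters (GRCm38.p6), short windows around the gene start, were matched for 34 of the 43 genes. The observed over expected CpG ratio had a median of 0.549 in 10 collagen genes with a peak and 0.382 in 24 without, against 0.602 in 16488 other protein-coding genes. A ratio of at least 0.6 was found in 3 of 10 (30%) and 8 of 24 (33.3%), against 50.2% of the others. The unmarked Col4a1 had the highest ratio of the 34, at 0.902, above its marked partner Col4a2 at 0.818. Col7a1, the most fully marked, stood at 0.471.

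Genes that act on collagen had peaks at higher shares than the collagen genes themselves, in lists chosen with these data known. Of 19 genes of collagen hydroxylation and folding 14 (73.7%) had a peak, with a median covered share of 17.5%, against 51.4% and 1.07% of all protein-coding genes. Colgalt1, which adds galactose to hydroxylysine, was covered over 85.9%, P4hb, the shared subunit of prolyl 4-hydroxylase, over 85.4%, Crtap, a partner of prolyl 3-hydroxylase, over 76.8% and P4ha1, a catalytic subunit of prolyl 4-hydroxylase, over 76.7%. Colgalt2, Plod2, P4ha3, P3h3 and Fkbp10 had no peak. Plod2 and Fkbp10 act on crosslinking lysines of the collagen telopeptides.

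Of 17 genes of collagen export and processing 10 (58.8%) had a peak, near the 51.4% of all protein-coding genes, with a median of 0.132% against 1.07%. The 10 include Loxl2, covered over 0.00115% by a peak that also lies on R3hcc1. Sec23a, a coat protein of export vesicles, was covered over 90.2%, Mia3, which loads large cargo such as type VII collagen into them, over 84.2%, Bmp1, the procollagen C-proteinase, over 71.4% and Mia2 over 57.8%. Of the 7 without a peak the longest were Adamts3, Adamts2, Tll2 and Pcolce2, genes of propeptide removal, and Lox, Loxl1 and Loxl3, which encode crosslinking enzymes, were also at 0. Of 10 collagen receptor genes 7 (70.0%) had a peak, with a median of 2.11%, against the same 51.4 and 1.07%. The 7 include Itga1, which had no covered base outside other protein-coding genes. Ddr1, a receptor tyrosine kinase of epithelia, was covered over 64.6% and Ddr2, its counterpart in mesenchymal cells, had none. Itgb1 was covered over 54.02%, Itga10 over 28.2% and Itga2, the α subunit of the main collagen receptor of KCs, over 20.1%, while Lair1 and Gp6, receptors of blood cells, had none.

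Col17a1, the collagen gene that the rule leaves out, encodes a transmembrane protein of the hemidesmosome and is a marker of basal KCs. It was covered over 94.2% of its body by 2 peaks with fold enrichments of 3.36 and 3.61, each with a p below 1e-05. The peak of 3.61 also lies on the neighbour Slk, which takes 9525 of its 32965 bp. Against Col17a1, Col7a1 had a covered share of 87.6% and fold enrichments no higher than 3.20, and no other collagen gene reached 50%.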

How the data were processed

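The authors trimmed single-end reads and mapped them with Bowtie2 2.2.6 to GRCm38. Peaks came from MACS2 2.1.1 at a p cut-off of 0.01 (methods), and ChIPseeker gave each a gene. In the sources used here neither the ChIPseeker version nor the control used in calling is given. The deposited fold enrichment is the ratio of ChIP signal over the caller's background. The authors' p-values and q-values are −log10 values, the smallest being 2.76 and 1.31. A p cut-off of 0.01 would admit a −log10 p down to 2, so the table holds no peak near it, and every q is below 0.05; which of p or q set the threshold is not known. Deposited positions, widths and distances are in bp, 1-based and closed. Sequencing depth is unknown, so no interval from depth can be given.

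Gene bodies, exons and coding sequences came from GENCODE vM21, and promoters from RefSeq. Peaks were counted on a gene from 1 bp of overlap, and the covered share, its distribution along the body, and exon and intron shares were taken from base overlaps. With no protein table in use, the collagen repeat was counted as GGN codons. No test between samples was possible. Members, gene lists and marker lists were chosen with earlier results of these data known. All 43 members were named, with the 4 most covered genes of each list of genes acting on collagen, at most 4 of its longest genes lacking a peak, and neighbours under a member's peak. Marker lists were given by counts and ranges. Flg, Ivl, Postn, Fbln1, Cd68, Pdgfra, Dcn, Lum, Fbn1, Thy1, Fkbp10, Lox, Loxl1, Loxl2, Loxl3 and Itga1 were named after their values were seen. The alternatives were a fold enrichment of 3 or more, a p below 1e-05, merged gaps, other overlap rules and other cuts on the covered share. The overlap functions were tested on simulated data. Python 3.11.15, NumPy 2.4.6, pandas 2.3.3, pysam 0.24.0 and matplotlib 3.10.9 were used. The sequence of 1 peak is not reported here.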

Additional observations from a re-analysis of the deposited data

How the results depend on the processing

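The counts rest on the authors' peak threshold. With only peaks of a p below 1e-05, 1 collagen gene had a peak and 1 was assigned one (12 and 11 as reported). At that p 0 collagen genes were covered over at least 50% of the body and 1 had more peak bases on the 3′ side. The shares of all protein-coding genes for these counts, and for genes assigned a peak at that p, were not taken. In place of 8 classes, 1 had a marked gene. Of the 46 genes that make, export, process or bind collagen, 11 had a peak at that p in place of 31. Among all protein-coding genes the share was 24.6% in place of 51.4%, so the 11 of 46 were near the share of all genes. The alternatives for the counts of classes and of these 46 genes were chosen after seeing the data. At a fold enrichment of at least 3, 5 of 8 collagen genes with a peak had more peak bases on the 3′ side, in place of 10 of 12. With 25% of the body asked in place of 50%, 4 genes were counted: Col7a1, Col10a1, Col16a1 and Col18a1. Of these, Col10a1 lies wholly inside Nt5dc1. The share of all protein-coding genes at that cut was not taken. The count of collagen genes with a peak was 8 to 11 under the other alternatives (fold enrichment, 500 bp of peak, at least 2 peaks, bases outside other genes). The shares of all protein-coding genes at 500 bp of peak and at 2 peaks were not taken. The median covered share stayed at 0 in all 5 alternatives tried for it. None of these could put a peak on the 31 genes without one, so that outcome was fixed in advance. No paired analysis was possible because there was 1 library, and leaving out a replicate could not be tried.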

Other observations

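4 peaks on collagen genes, 1 each on Col4a2, Col4a5, Col4a6 and Col5a1, held the same deposited values, a fold enrichment of 2.56 and a −log10 p of 2.93, and 1348 peaks of the library (2.96%) share that pair of values. For Col5a1 it is the sole peak on the gene. Every peak on Col6a6 and Col10a1 also lies on a neighbour (Pik3r4 and Nt5dc1), and each of the other 10 marked collagen genes has at least 1 peak that touches no other protein-coding gene.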
